A study of Mus musculus with 8 samples.

Results

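Collagens are the fibrous proteins of the extracellular matrix, and each is built from several chains, called alpha chains, that are encoded by their own genes. Messenger RNA (mRNA) for these chains was compared between white fat of Rap1-deficient and wild-type (WT) mice. All genes with a mouse symbol of the collagen form (Col, a number, a, a number) in the RefSeq table were taken, which gave 44 genes. Of these, 42 had at least 1 array probe matched to them through that table (61 probes in all). Among the 42, 31 had a probe whose signal stood well above its background on 4 or more arrays of 8. Those 31 were tested among 25065 genes or features. Each gene was represented by its brightest probe.

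The samples were total RNA from white fat of 8 mice at 10 weeks of age, 4 Rap1-/- and 4 WT, each hybridised to its own one-colour array. All were of a mixed C57BL6/129SV (90%:10%) background, and the Rap1-/- mice lacked Rap1 (gene Terf2ip), a telomere-binding protein that also occupies sites along chromosome arms, in the whole body rather than in fat alone. The deletion was made by crossing mice with a floxed Rap1 allele to mice carrying EIIa-Cre, a Cre active in the early embryo. The study names the depot as gonadal fat. It describes the profiled mice as females, alike in mean body weight between genotypes and not yet obese. Whether the 4 mice of a genotype shared a litter is not stated, so the spread between arrays is that between these samples. At the level of the tissue, fewer cells of a type and less RNA per cell cannot be told apart.

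Collagen chains are hydroxylated, folded into triple helices and exported by cells of the connective tissue, and then trimmed and crosslinked outside the cell. Fibrillar collagens (types I, III and V among others) form the cable-like fibres of the fat stroma. Type IV collagens form the sheet of the basement membrane that wraps every fat cell, and type VI collagens form the beaded filaments that lie next to it and are abundant in adipose tissue. The remaining classes decorate fibrils (FACIT collagens), form short networks (types VIII and X), anchor in the cell membrane or lie in basement membrane zones (types XV and XVIII, the multiplexins).

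Levels are given as log2 of the processed signal minus the 75th percentile of the same array, so that each unit is a doubling of signal on that scale, and differences are Rap1-/- minus WT. Levels of different probes are not compared with each other. The 75th percentile of the processed signal lay between 302 and 497 intensity units, 59.7% to 65.2% of spots were well above background and 0 were saturated. The 8 arrays correlated with one another at 0.976 to 0.992 within and 0.978 to 0.992 between genotypes, over genes. Replicates 1 and 2 of both genotypes were on one slide and replicates 3 and 4 on another, and on both slides the WT arrays held positions 1 and 2 and the Rap1-/- arrays positions 3 and 4, so position and genotype cannot be told apart. The Terf2ip probe A_52_P381806 was well above background on 4 of 4 WT arrays (0.06 to 0.49) and on 0 of 4 Rap1-/- arrays (-7.58 to -7.13), which goes with the labels. A second Terf2ip probe, A_55_P2094079, was higher on the Rap1-/- arrays (0.84 to 1.06) than on the WT arrays (-1.49 to -1.27). All 9 adipocyte markers listed, such as Adipoq, Plin1 and Fabp4, were above background on every array.

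Of the 31 collagen genes tested, 24 had a higher mean and 7 a lower mean in Rap1-/- fat, and the median difference was 0.21 log2 units, with a range of -0.35 to 0.72. Over all 25065 genes or features the median was -0.04 and 40.1% had a higher mean. No collagen gene passed an adjusted p of 0.05 in limma (adjusted p from 0.874 to 0.999), in a comparison in which 1 gene of 25065 (0.00399%) passed, Terf2ip itself, through its second probe. Without adjustment, 4 chains, Col8a2, Col6a1, Col5a1 and Col4a6, were higher at a p under 0.05 and 0 were lower, against 1.67% of all genes higher and 3.31% lower. Col8a2 was the only chain of the 31 for which all 4 Rap1-/- arrays lay above all 4 WT arrays, against 0.898% of all genes, and no chain lay below on all 4, against 2.36%. The chains were measured on the same arrays and varied together, so these counts are a description and carry no test. A p that misses the threshold does not show that the genotypes had the same level.

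The mean over the 31 chains, after each was centred on its own mean, was 0.05, 0.08, 0.03 and 0.24 on Rap1-/- arrays 1 to 4 and -0.22, 0.07, -0.26 and 0.00 on WT arrays 1 to 4. WT replicates 1, 3 and 4 were below every Rap1-/- array, whereas WT replicate 2 lay inside the Rap1-/- range, so the groups overlapped. Within slide 1 the median difference of the chains was 0.15 and 22 of 31 were higher, and within slide 2 it was 0.24 and 26 were higher. The number of chains higher at an unadjusted p under 0.05 depended on single arrays: it was 2 without Rap1-/- replicate 1, 2 or 4 (344, 399 and 450 of 25065 over all genes), 1 without WT replicate 1 or 3 (278 and 335) and 6 without WT replicate 2 or 4 (703 and 509), against 418 over all genes with every array. The split of higher and lower chains was 24 to 7 as reported, 30 to 1 with arrays scaled to the E1A spike-in controls (85.5% of all genes higher) and 19 to 12 with normexp background correction (33.1% of all genes higher). The spike-in scaling moved the median of all genes to 0.19 and that of the collagens to 0.43, a shift that is the same for every gene. The distance between the medians was 0.24 as reported, 0.22 with normexp and 0.18 in the deposited values.

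**Figure D1:**
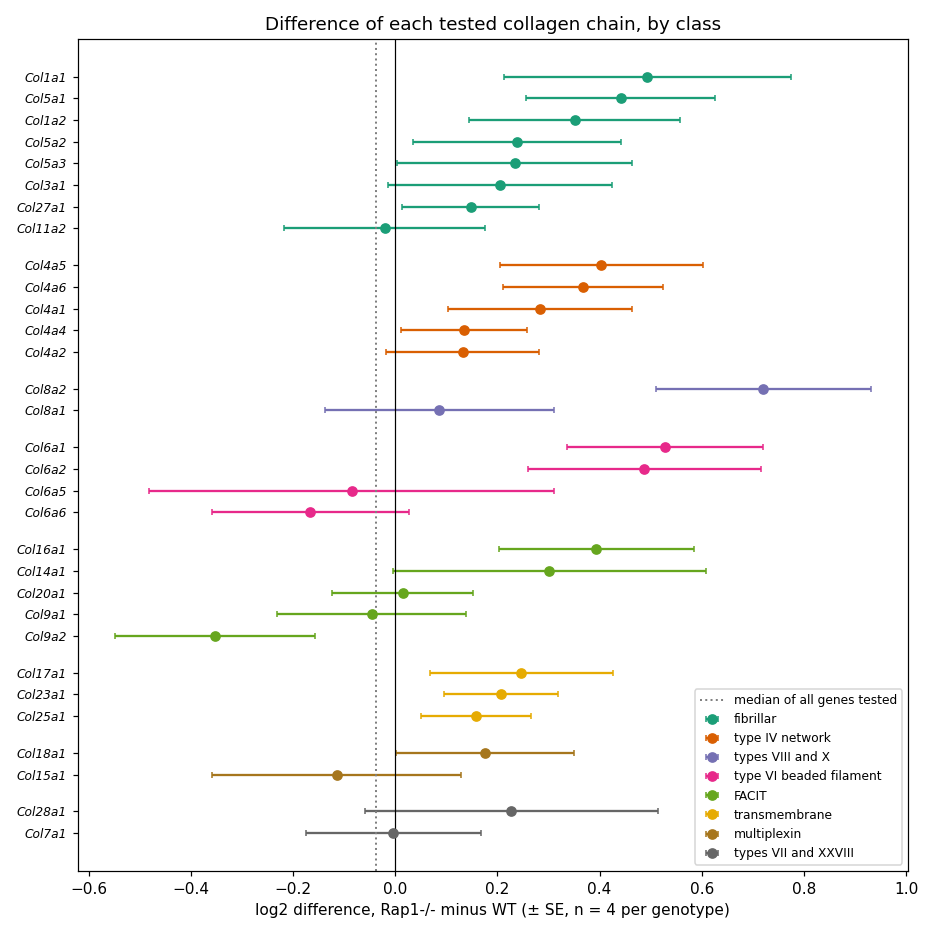
Difference between Rap1-/- and WT fat for each of the 31 collagen genes tested, in log2 units on the x axis, with ± SE as the bar (n = 4 per genotype), colours for the collagen class and a dotted line at the median of all genes tested (-0.04). The points run from -0.35 for Col9a2 to 0.72 for Col8a2, and 24 of 31 lie to the right of 0.

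Of the fibrillar collagens, 8 were tested, 7 had a higher mean in Rap1-/- fat and 1 a lower mean, with a median difference of 0.24. When single arrays were left out, the median ran from 0.16 (without Rap1-/- replicate 4) to 0.37 (without WT replicate 4). Col1a1, which encodes the alpha 1 chain of type I collagen, had levels of 5.11, 5.46, 4.94 and 5.46 in Rap1-/- replicates 1 to 4 and 4.54, 5.33, 4.03 and 5.09 in WT replicates 1 to 4. WT replicates 1 and 3 were below all Rap1-/- arrays and WT replicates 2 and 4 lay among them. The difference was 0.49 ± 0.28 (SE), with a 95% interval of -0.15 to 1.14, and it was 0.25 without WT replicate 3 and 0.69 without WT replicate 2. For Col1a2, the partner chain of type I collagen, the levels were 6.29, 6.63, 6.35 and 6.74 in Rap1-/- replicates 1 to 4 and 5.95, 6.50, 5.68 and 6.47 in WT replicates 1 to 4, with the same pair of WT arrays below all others and a difference of 0.35 ± 0.21 (SE) that was 0.20 without WT replicate 3. Col3a1, the chain of type III collagen, had levels of 6.19, 6.28, 6.16 and 6.82 in Rap1-/- replicates 1 to 4 and 5.95, 6.56, 5.74 and 6.39 in WT replicates 1 to 4. The groups overlapped, and the difference of 0.20 ± 0.22 (SE) was 0.43 within slide 2 and -0.02 within slide 1, 0.05 without Rap1-/- replicate 4 and 0.06 without WT replicate 3.

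Col5a1, a chain of type V collagen, which sits in the core of type I fibrils and limits their width, had levels of 3.21, 3.16, 2.75 and 3.34 in Rap1-/- replicates 1 to 4 and 2.28, 2.75, 2.62 and 3.04 in WT replicates 1 to 4. WT replicate 1 was the lowest array, WT replicate 4 lay within the Rap1-/- range, and WT replicate 2 (2.751) was just above Rap1-/- replicate 3 (2.749). The difference was 0.44 ± 0.18 (SE), with a 95% interval of 0.02 to 0.87 and an adjusted p of 0.874 in limma, and it was 0.67 within slide 1 and 0.22 within slide 2. The other type V chains, Col5a2 and Col5a3, differed by 0.24 ± 0.20 and 0.23 ± 0.23. Col27a1 differed by 0.15 ± 0.13 and Col11a2, a cartilage chain, by -0.02 ± 0.20. The cartilage chains Col2a1 and Col11a1, and also Col24a1, were not well above background on any array.

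**Figure D2:**
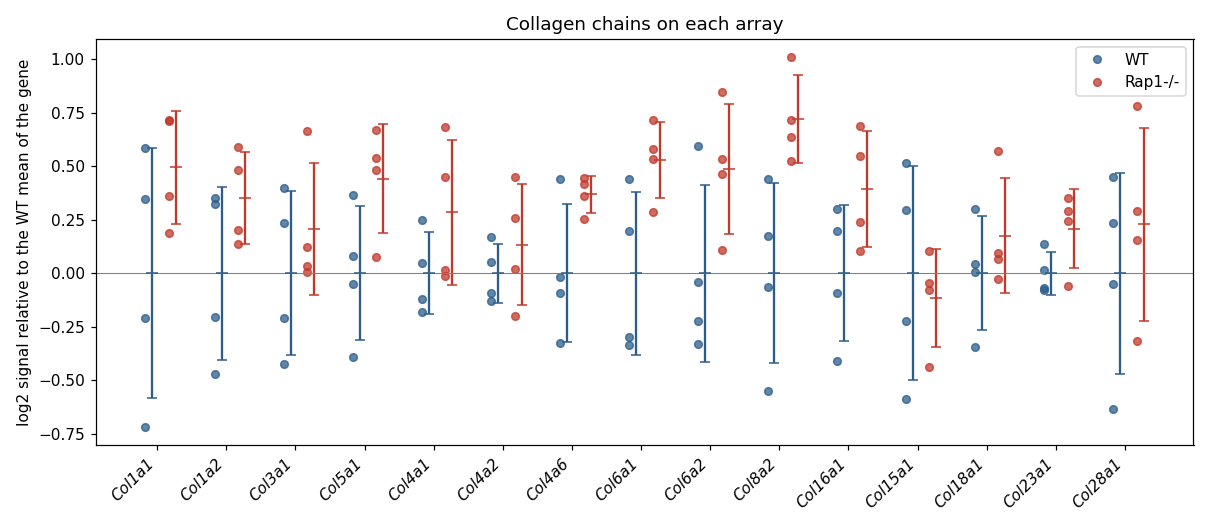
Level of 15 collagen chains on each of the 8 arrays, in log2 units relative to the WT mean of the same gene on the y axis, with 1 point per array and the mean ± SD of each genotype beside the points. Among these 15 chains, only for Col8a2 do all 4 Rap1-/- points lie above all 4 WT points.

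All 5 type IV chains tested had a higher mean in Rap1-/- fat, with a median of 0.28 and a range of 0.13 to 0.40. The median was 0.15 without Rap1-/- replicate 4 and 0.18 with the mean of a gene's probes, and within slide 1 it was 0.06 with 4 of 5 higher. Col4a1 and Col4a2 make the form of type IV collagen found in nearly all basement membranes. Col4a1 had levels of 4.48, 4.01, 4.04 and 4.71 in Rap1-/- replicates 1 to 4 and 3.91, 4.28, 3.85 and 4.08 in WT replicates 1 to 4, and Rap1-/- replicates 1 and 4 were above every WT array while replicates 2 and 3 lay within the WT range. Col4a2 had levels of 4.69, 4.23, 4.45 and 4.88 in Rap1-/- replicates 1 to 4 and 4.34, 4.60, 4.30 and 4.49 in WT replicates 1 to 4. The same Rap1-/- replicates 1 and 4 were highest, and Rap1-/- replicate 2 was below all WT arrays. The differences were 0.28 ± 0.18 (SE) for Col4a1 and 0.13 ± 0.15 (SE) for Col4a2, the latter -0.01 within slide 1 and 0.27 within slide 2. Without Rap1-/- replicate 4 they were 0.15 and 0.03.

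Col4a6, a minor chain known from the basement membrane around smooth muscle, had levels of -0.27, -0.16, -0.10 and -0.07 in Rap1-/- replicates 1 to 4 and -0.54, -0.08, -0.85 and -0.61 in WT replicates 1 to 4. WT replicates 1, 3 and 4 were below all Rap1-/- arrays and WT replicate 2 lay at the top of their range. The difference was 0.37 ± 0.16 (SE), with a 95% interval of 0.01 to 0.73 and an adjusted p of 0.874 in limma. It was 0.09 within slide 1 and 0.64 within slide 2, and a second, dimmer Col4a6 probe gave -0.12 ± 0.11. Its partner chain Col4a5 differed by 0.40 ± 0.20 (SE), with levels of -0.56, -0.51, -0.36 and -0.41 in Rap1-/- replicates 1 to 4 and -0.86, -0.26, -1.22 and -1.12 in WT replicates 1 to 4. WT replicates 1, 3 and 4 were again below all Rap1-/- arrays, and WT replicate 2 was the highest of the 8. Col4a4, which joins Col4a3 and Col4a5 in kidney and lung, differed by 0.13 ± 0.12, and Col4a3 was above background on 1 array.

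Type VI collagen gave 2 higher and 2 lower means among 4 chains tested, with a median of 0.20 that was 0.10 without WT replicate 3, 0.12 without Rap1-/- replicate 4, 0.31 without WT replicate 1, 0.05 within slide 1 and 0.34 within slide 2. The chains of its main form were the higher ones. Col6a1 had levels of 6.05, 5.87, 5.62 and 5.91 in Rap1-/- replicates 1 to 4 and 5.04, 5.53, 5.0 and 5.78 in WT replicates 1 to 4. WT replicates 1, 2 and 3 were below all Rap1-/- arrays and WT replicate 4 lay among them, and the difference was 0.53 ± 0.19 (SE) with a 95% interval of 0.09 to 0.97 and an adjusted p of 0.874 in limma. Col6a2 had levels of 3.47, 3.40, 3.04 and 3.78 in Rap1-/- replicates 1 to 4 and 2.61, 2.89, 2.71 and 3.53 in WT replicates 1 to 4, with the same WT arrays below all Rap1-/- arrays. Its difference was 0.49 ± 0.23 (SE), with a 95% interval of -0.04 to 1.01. The difference of Col6a1 was 0.68 within slide 1 and 0.38 within slide 2, and that of Col6a2 was 0.69 and 0.29. Col6a5 and Col6a6, which can take the place of the third chain, differed by -0.08 ± 0.40 and -0.17 ± 0.19. A second, dimmer Col6a6 probe gave 0.36 ± 0.41. The split of higher and lower type VI chains was 3 to 1 with the mean of a gene's probes. It was 4 to 0 within slide 2 and with the spike-in scaling (85.5% of all genes higher), and 2 to 2 within slide 1. Both Col6a4 probes were not well above background on any array, and Col6a3, the third chain of the main form, was not analysed here because no probe was matched to it.

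Col8a2, a short chain collagen best known from the membrane beneath the corneal endothelium, had the largest difference of the 31 chains as reported, but Col6a1 was the highest with normexp (0.57 against 0.56), in the deposited values (0.62 against 0.61) and with the mean of probes (0.53 against 0.27), and Col6a2 within slide 1 (0.69 against 0.39). Its levels were -0.65, -0.54, -0.46 and -0.17 in Rap1-/- replicates 1 to 4 and -1.24, -0.74, -1.72 and -1.0 in WT replicates 1 to 4. All 4 Rap1-/- arrays were above all 4 WT arrays, with the lowest Rap1-/- array at -0.65 and the highest WT array at -0.74. The difference was 0.72 ± 0.21 (SE), a 1.65-fold higher mean signal, with a 95% interval of 0.24 to 1.20 and an adjusted p of 0.874 in limma. The difference was 0.39 within slide 1 and 1.05 within slide 2. The second Col8a2 probe, A_55_P1960631, which matched the same transcript and was also above background on all arrays, gave -0.18 ± 0.28, and the mean of both probes gave 0.27. The related Col8a1 differed by 0.09 ± 0.22, and Col10a1, a marker of growth plate cartilage, was not well above background on any array.

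The FACIT collagens, which attach to fibrils, gave 3 higher and 2 lower means among 5 tested, with a median of 0.02. Col16a1 had levels of 2.56, 3.01, 2.70 and 3.15 in Rap1-/- replicates 1 to 4 and 2.05, 2.66, 2.37 and 2.76 in WT replicates 1 to 4. WT replicates 1 and 3 were below all Rap1-/- arrays and the others overlapped, and the difference was 0.39 ± 0.19 (SE), 0.43 within slide 1, 0.36 within slide 2 and 0.26 without WT replicate 1. Col14a1, found on type I fibrils in skin and tendon, differed by 0.30 ± 0.31 and Col20a1 by 0.02 ± 0.14. The type IX chains of cartilage were Col9a2, with the lowest difference of the 31 chains (-0.35 ± 0.20, 95% interval -0.80 to 0.10), and Col9a1 (-0.05 ± 0.19). Col9a3 and Col19a1 were not well above background on any array, Col22a1 was above it on 3, and Col12a1 was not analysed here because no probe was matched to it.

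All 3 transmembrane collagens tested had a higher mean, with a median of 0.21, but the median was -0.13 with normexp background correction and 0.04 in the deposited values. Col23a1 had levels of -2.44, -2.39, -2.33 and -2.75 in Rap1-/- replicates 1 to 4 and -2.76, -2.55, -2.67 and -2.75 in WT replicates 1 to 4. Rap1-/- replicates 1 to 3 were above all WT arrays and replicate 4 was among them, and the difference was 0.21 ± 0.11 (SE), although a second probe gave -0.06 ± 0.13. Col25a1 differed by 0.16 ± 0.11. Col17a1, a chain of the junction between epithelium and basement membrane, differed by 0.25 ± 0.18 and was above background on 3 Rap1-/- arrays and 1 WT array. Col13a1 was not well above background on any array.

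The multiplexins of the basement membrane zone had mean differences of opposite sign. Col18a1, whose end fragment is endostatin, had levels of 3.40, 2.89, 2.92 and 2.80 in Rap1-/- replicates 1 to 4 and 2.87, 3.13, 2.48 and 2.83 in WT replicates 1 to 4, with Rap1-/- replicate 1 the highest and WT replicate 3 the lowest array. Its difference was 0.18 ± 0.17 (SE), but 0.04 without Rap1-/- replicate 1 and 0.06 without WT replicate 3. Col15a1 had levels of 0.24, 0.21, 0.39 and -0.15 in Rap1-/- replicates 1 to 4 and 0.06, -0.30, 0.80 and 0.58 in WT replicates 1 to 4. WT replicates 3 and 4 were the highest arrays and WT replicate 2 the lowest. The difference was -0.11 ± 0.24 (SE) but 0.11 with the spike-in scaling, 0.34 within slide 1 and -0.57 within slide 2, and 0.06 without WT replicate 3. The other kept probes of Col15a1 gave 0.21 ± 0.20 and 0.26 ± 0.18.

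Of the other chains, Col7a1, the anchoring fibril collagen of skin, had a difference of -0.0040 ± 0.17. Col28a1, a chain known from peripheral nerve, had levels of -3.95, -4.56, -4.09 and -3.46 in Rap1-/- replicates 1 to 4 and -4.87, -3.79, -4.29 and -4.00 in WT replicates 1 to 4. It was above background on 4 Rap1-/- and 3 WT arrays, the groups overlapped, and the difference of 0.23 ± 0.29 (SE) was -0.08 with normexp background correction, 0.02 without WT replicate 1 and 0.04 without Rap1-/- replicate 4. Col26a1 was not well above background on any array. Of the 10 tested genes with more than 1 kept probe, the probes gave the same sign for 5 genes and different signs for 5 (Col8a2, Col4a6, Col6a6, Col15a1 and Col23a1).

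Chains that are assembled together were then set against each other on each array, as the log2 ratio of their signals, because such a ratio does not change with the scaling of the array. The size of a ratio also reflects the probes, so its difference between genotypes is what is compared. Col1a1 over Col1a2 was -1.18, -1.17, -1.41 and -1.27 on the Rap1-/- arrays and -1.41, -1.17, -1.65 and -1.38 on the WT arrays. The mean ratio differed by 0.14 between genotypes (exact two-sided permutation p = 0.343, adjusted over 6 pairs 0.514). Col4a1 over Col4a2 was -0.21, -0.22, -0.41 and -0.17 on the Rap1-/- arrays and -0.43, -0.32, -0.45 and -0.41 on the WT arrays. This ratio differed by 0.15, and the groups overlapped (exact p = 0.0571, adjusted 0.343). Col6a1 over Col6a2 was 2.58, 2.47, 2.58 and 2.13 on the Rap1-/- arrays and 2.43, 2.64, 2.29 and 2.25 on the WT arrays, with a difference of 0.04 (exact p = 0.83, adjusted 0.83) that was -0.01 within slide 1.

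Col5a1 over Col5a2 differed by 0.20 (exact permutation p = 0.286, adjusted 0.514), and by -0.03 within slide 2. Col1a1 over Col3a1 differed by 0.29 (exact permutation p = 0.114, adjusted 0.343) and Col15a1 over Col18a1 by -0.29 (exact permutation p = 0.514, adjusted 0.617), the latter 0.20 within slide 1, -0.0028 without WT replicate 3 and -0.59 without WT replicate 2. None of the 6 ratios passed after adjustment. The smallest p that this permutation test can give for 4 arrays against 4 is 0.0286, reached only when the groups do not overlap. On its own, 1 such ratio could not pass after adjustment over 6 pairs, so a miss does not show equal ratios. A ratio of Col6a1 to Col6a3 was not analysed.

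Partner chains varied together from array to array, but how far other genes of the tissue vary with them was not tested. Over the 8 arrays, Pearson's r of the levels was 0.98 for Col1a1 and Col1a2 (permutation p = 0.000273, adjusted over the 6 pairs 0.00156) and Spearman's rho was 0.93 (adjusted p = 0.0067). For Col4a1 and Col4a2, r was 0.95 (permutation p = 0.000521, adjusted 0.00156) and rho 0.93 (adjusted p = 0.0067), and for Col6a1 and Col6a2, r was 0.90 (permutation p = 0.00134, adjusted 0.00268) and rho 0.86 (adjusted p = 0.0129). Col1a1 and Col3a1 gave r of 0.88 (permutation p = 0.00347, adjusted 0.00521) and rho of 0.88 (adjusted p = 0.0129). Without the pair of arrays farthest from the median of the first chain, r was 0.87, 0.81, 0.81 and 0.67 in the same order.

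For Col5a1 and Col5a2, r was 0.73 (permutation p = 0.046, adjusted 0.0552), rho was 0.86 (adjusted p = 0.0129), and r was 0.53 without the 2 farthest arrays. Col15a1 and Col18a1, which are not assembled together, gave r of -0.49 (permutation p = 0.208, adjusted 0.208) and rho of -0.33 (adjusted p = 0.428), and r of 0.11 without the 2 farthest arrays. These values rest on the brightest Col15a1 probe, and correlations of its other kept probes were not analysed. The points share arrays and the scaling of each array, and the groups were not separated for these correlations.

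**Figure D3:**
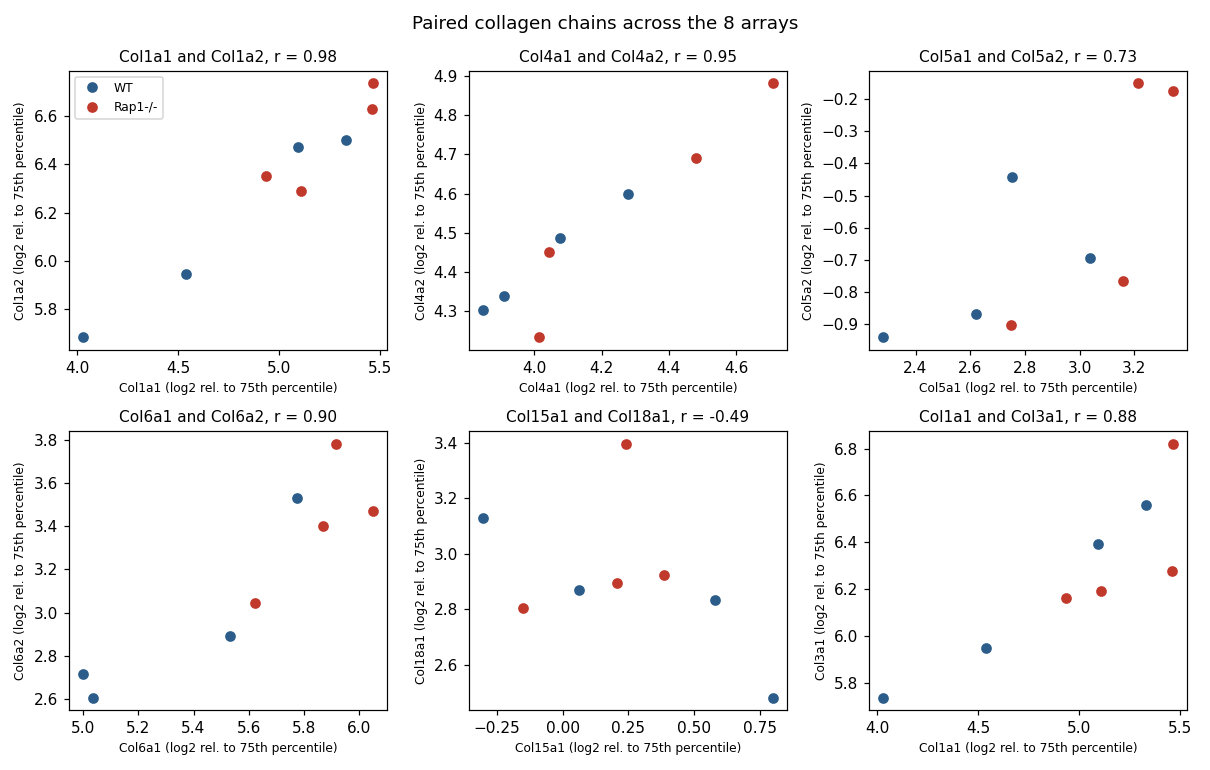
Level of one collagen chain against that of its partner on the 8 arrays, both in log2 units relative to the array's 75th percentile, with Rap1-/- and WT arrays marked. The type I pair lies closest to a line (r = 0.98), whereas Col15a1 and Col18a1 do not (r = -0.49).

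Several chains lie next to each other in the genome. In RefSeq (GRCm38.p6), Col4a1 and Col4a2 are neighbours on chromosome 8, and Col6a1 and Col6a2 on chromosome 10. So are Col3a1 and Col5a2 on chromosome 1, and Col4a5 and Col4a6 on chromosome X. Col4a5 and Col4a6 are read in opposite directions from starts 1343 bases apart. Col4a1 and Col4a2 are also read in opposite directions, from starts 21 bases apart. The 250 bases before the start are shown for the 4 chains higher at an unadjusted p under 0.05 and for Col4a5, the neighbour of Col4a6, which is read from the same start region. Sequences are from RefSeq, 5′ to 3′ on the strand of the gene, and capitals mark, on either strand, the GC box GGGCGG, the CCAAT box by its own letters, the TATA box TATAAA and the telomeric unit TTAGGG.
Col8a2, chr4:126286544-126286793, plus strand: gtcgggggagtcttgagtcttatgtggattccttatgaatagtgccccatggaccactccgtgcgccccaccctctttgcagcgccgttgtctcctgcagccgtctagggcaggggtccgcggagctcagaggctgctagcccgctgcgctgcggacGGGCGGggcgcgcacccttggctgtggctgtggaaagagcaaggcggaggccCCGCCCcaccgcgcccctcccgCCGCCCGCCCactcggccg
Col6a1, chr10:76726045-76726294, minus strand: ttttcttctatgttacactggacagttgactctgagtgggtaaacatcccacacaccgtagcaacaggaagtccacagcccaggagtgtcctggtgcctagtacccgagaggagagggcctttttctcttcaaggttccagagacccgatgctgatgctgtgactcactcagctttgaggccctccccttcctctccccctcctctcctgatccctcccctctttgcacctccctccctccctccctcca
Col5a1, chr2:27886175-27886424, plus strand: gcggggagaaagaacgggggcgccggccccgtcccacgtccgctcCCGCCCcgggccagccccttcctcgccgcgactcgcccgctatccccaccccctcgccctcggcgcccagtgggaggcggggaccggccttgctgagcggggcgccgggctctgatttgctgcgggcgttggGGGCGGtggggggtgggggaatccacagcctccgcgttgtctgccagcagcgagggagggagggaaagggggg
Col4a6, chrX:141474077-141474326, minus strand: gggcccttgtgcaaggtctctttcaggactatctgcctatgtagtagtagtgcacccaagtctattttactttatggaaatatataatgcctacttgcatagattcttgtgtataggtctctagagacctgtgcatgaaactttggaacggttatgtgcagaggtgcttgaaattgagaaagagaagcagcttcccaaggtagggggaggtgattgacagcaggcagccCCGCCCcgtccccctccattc
Col4a5, chrX:141475169-141475418, plus strand: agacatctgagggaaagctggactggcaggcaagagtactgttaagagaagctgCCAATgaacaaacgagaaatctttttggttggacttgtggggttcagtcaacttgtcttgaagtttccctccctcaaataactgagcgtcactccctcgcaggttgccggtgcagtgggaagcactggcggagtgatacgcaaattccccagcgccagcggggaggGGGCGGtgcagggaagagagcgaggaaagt
The GC content of these windows was 70.0% for Col8a2, 56.0% for Col6a1, 76.4% for Col5a1, 47.6% for Col4a6 and 54.0% for Col4a5. GGGCGG on either strand occurred 4 times before Col8a2, 2 times before Col5a1, 1 time each before Col4a6 and Col4a5, and 0 times before Col6a1. No TATA box and no telomeric unit was present in these 5 windows, and the CCAAT box occurred only before Col4a5.

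Start windows were available for 28 of the 31 tested genes (31 windows). The windows set beside them were those of all genes, whether or not detected in this fat, so the 2 sets are unlike in that respect. GGGCGG was found in 20 of 31 windows (64.5%) against 32.7% of all 32851 windows of that length, CCAAT in 11 (35.5%) against 33.8%, and TATAAA in 3 (9.68%) against 12.4%. TTAGGG, the repeat of telomeric DNA that Rap1 is recruited to, was found in 4 (12.9%), those of Col4a4, Col6a5, Col7a1 and Col25a1, against 9.32%. None of these 4 genes was among the 4 chains with an unadjusted p under 0.05. A match of letters is a description of the sequence and not a binding site, and its absence from 250 bases says nothing about the factor.

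Genes that act on collagen after its synthesis also had mostly higher means, and none passed an adjusted p of 0.05 in limma. Among the 20 genes for hydroxylation, glycosylation and folding, 18 were higher and 2, P4ha3 and P3h1, lower, with a median of 0.16. Those with the smallest p were P3h4 (0.27 ± 0.13), P3h3 (0.24 ± 0.12) and Crtap (0.17 ± 0.11), which belong to prolyl 3-hydroxylase complexes, and P4hb (0.16 ± 0.09), a subunit of prolyl 4-hydroxylase. None of the 20 had an unadjusted p under 0.05. Of 18 genes for export and propeptide trimming, 14 were tested, 9 higher and 5 lower, with a median of 0.11. Adamts2, which removes the amino-terminal propeptide of procollagens, was higher at an unadjusted p under 0.05 (0.35 ± 0.13, adjusted p = 0.874), and Sec24d (0.33 ± 0.16) and Bmp1 (0.15 ± 0.09) were among the smallest p. Mia2 differed by -0.17 ± 0.11 but by 0.06 with the spike-in scaling. Of these listed genes, only Mia3 (-0.08), a loader of procollagen into transport carriers, had all 4 Rap1-/- arrays below all 4 WT arrays. The share over all genes was 2.36%. The gap for Mia3 was narrow, with the highest Rap1-/- array at 3.566 and the lowest WT array at 3.568.

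Of the 6 crosslinking enzymes, 5 were higher and 1, Loxl3, lower, with a median of 0.29. Lox, the lysyl oxidase that starts crosslinking of fibrils, had levels of -0.49, -1.21, -0.83 and -0.96 in Rap1-/- replicates 1 to 4 and -1.23, -1.01, -1.68 and -1.67 in WT replicates 1 to 4, a difference of 0.53 ± 0.20 and an adjusted p of 0.874 in limma. Loxl1 had levels of 2.68, 2.94, 2.67 and 3.40 in Rap1-/- replicates 1 to 4 and 2.45, 2.74, 2.09 and 2.49 in WT replicates 1 to 4 and a difference of 0.48 ± 0.20 (adjusted p = 0.874). In both genes the groups overlapped, and both were among the genes with an unadjusted p under 0.05. Loxl4 differed by 0.30 ± 0.20 and the transglutaminase Tgm2 by 0.27 ± 0.19.

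Of 13 collagen receptors and uptake genes, 10 were tested, 7 higher and 3 lower, with a median of 0.05. Antxr1 (0.29 ± 0.16) and Antxr2 (0.16 ± 0.10), receptors that bind type VI and type IV collagens among others, had the smallest p, with the endocytic receptor Mrc2 at 0.13 ± 0.12. The kinase receptor Ddr1 was at -0.12 ± 0.14, or 0.11 with the spike-in scaling. Of 9 collagenases and their inhibitors, 7 were tested, 6 higher and 1, Timp3, lower, with a median of 0.20. Mmp2, a gelatinase, differed by 0.37 ± 0.24 (-0.00 within slide 1 and 0.74 within slide 2), Timp1 by 0.44 ± 0.33, Ctsk by 0.25 ± 0.19 and Timp2 by 0.08 ± 0.16. The collagenases Mmp8 and Mmp13 did not pass the background filter.

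Of 16 genes of the TGF-beta pathway, an inducer of collagen transcription, 10 were higher and 6 lower, with a median of 0.03. The ligand Tgfb3 (0.39 ± 0.16) and the receptor Tgfbr2 (0.24 ± 0.10) were higher at an unadjusted p under 0.05, both with an adjusted p of 0.874 in limma. The target Ccn2 differed by 0.44 ± 0.23 and the ligand Tgfb2 by 0.32 ± 0.17. No chain or pathway gene of these lists passed the adjusted threshold, although 2 crosslinking, 1 export and 2 TGF-beta genes were higher at an unadjusted p under 0.05, against 1.67% of all genes.

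Markers of the cells that white fat holds were read on the same arrays. Of 10 mesothelial markers, which mark the outer lining of intra-abdominal fat, 10 had a higher mean in Rap1-/- fat, with a median of 0.63, 4 of them at an unadjusted p under 0.05 (Upk1b, Krt8, Bnc1 and Gpm6a), against 1.67% of all genes, and 2 without overlap (Upk1b and Krt8), against 0.898%. Their mean per array, centred, was 0.29, 0.12, 0.42 and 0.39 on Rap1-/- arrays 1 to 4 and -0.26, 0.26, -1.04 and -0.19 on WT arrays 1 to 4. WT replicate 3 was the lowest and WT replicate 2 lay within the Rap1-/- range, as for the means over collagen chains and over crosslinking enzymes. Of 11 fibroblast and preadipocyte markers, 8 were higher, with a median of 0.23 and 0 at an unadjusted p under 0.05. Their mean per array was 0.19, 0.08, 0.08 and 0.00 in Rap1-/- and -0.20, 0.28, -0.38 and -0.06 in WT fat. All markers of both lists were well above background, and their part in the collagen result was not tested.

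Smooth muscle and pericyte markers (5 of 7 higher, median 0.25) and macrophage markers (7 of 8 higher, median 0.21) also had positive medians. Adipocyte markers had 8 of 9 lower means and a median of -0.21, but 0.01 with the spike-in scaling and -0.03 in the deposited values. At an unadjusted p under 0.05, 4 of them (Fabp4, Cidec, Lipe and Retn) were lower, against 3.31% of all genes. Of these, 2 (Fabp4 and Cidec) were without overlap, against 2.36%. The marker with a higher mean was Lep. Its levels were 3.46, 3.41, 3.02 and 2.47 in Rap1-/- replicates 1 to 4 and 2.40, 2.71, 1.72 and 2.99 in WT replicates 1 to 4, with overlap. Endothelial markers had 6 of 9 lower means and a median of -0.03, which was 0.19 with the spike-in scaling. Skeletal muscle markers were lower in 9 of 9, with a median of -1.54, and their mean per array ran from -5.13 to 3.43 within the Rap1-/- group alone. Schwann cell markers had a median of 0.04, lymphocyte markers 0.00 and the 4 tested ovary and oviduct markers -0.03. Of the ovarian markers, Cyp11a1, Cyp19a1, Fshr, Amh and Pax8 were not well above background on any array. The part of these lists in the collagen result was not tested either.

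**Figure D4:**
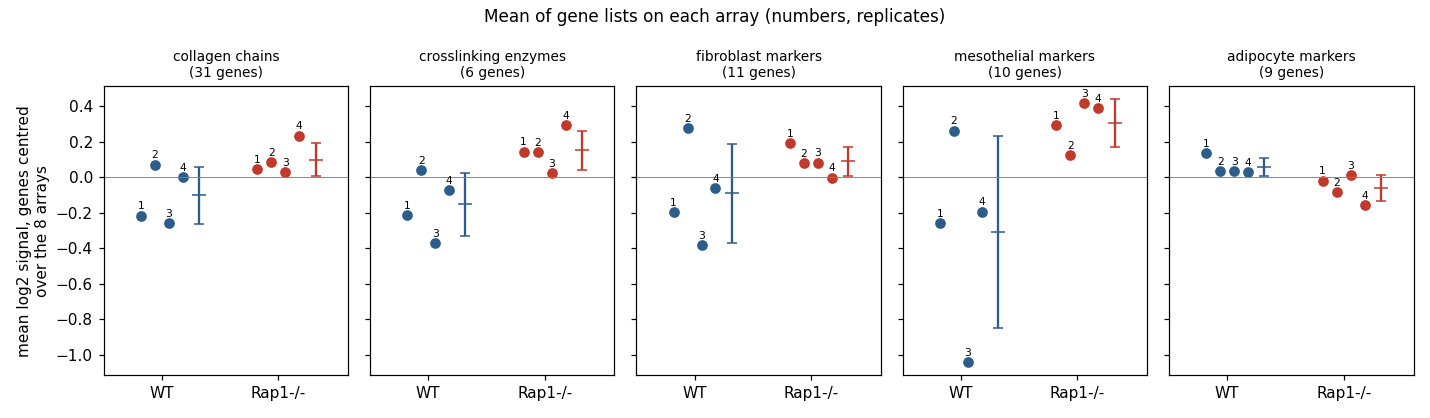
Mean level per array of the collagen chains, crosslinking enzymes and fibroblast, mesothelial and adipocyte markers, in log2 units after each gene was centred on its own mean over the 8 arrays, with numbered points for replicates and the mean ± SD of each genotype. WT replicate 3 is lowest for the collagen chains (-0.26), crosslinking enzymes (-0.37), fibroblast markers (-0.38) and mesothelial markers (-1.04). WT replicate 2 lies within the Rap1-/- range for the collagen chains, crosslinking enzymes and mesothelial markers. For the fibroblast markers it lies above that range.

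**Figure D5:**
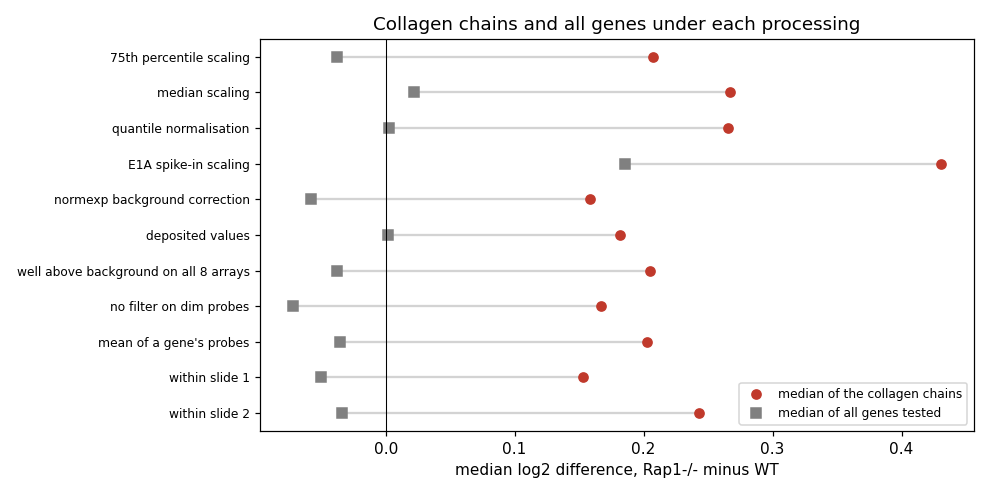
Median difference of the collagen chains tested and of all genes tested, in log2 units, under each way of processing the arrays (29 chains with the stricter filter, 42 with none and 31 otherwise). The collagen median lies above the median of all genes in every setting drawn, by 0.18 (deposited values) to 0.28 (within slide 2).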

How the data were processed

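The authors hybridised Cy3-labelled white fat RNA of 4 Rap1-/- and 4 WT mice, with integrity numbers of 6.5 to 8.5, to Agilent mouse arrays designed on mm9. The deposited scanner files, made with Feature Extraction 10.7.3.1 per the file headers, give each spot a processed, a median and a local background signal as linear intensity, before any normalisation between arrays, and 0 or 1 flags for detection, saturation and outliers. A further deposited table holds log2 values. The normalisation behind it is not stated. It was matched (r of 0.999985 or more on every array) by normexp correction at an offset of 50 and then quantile normalisation, and limma is the tool in the submitters' processing notes.

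Of 55681 gene probes, 13 lacked a value and 33983 were well above background on 4 or more arrays. Symbols came from matching each probe's accession to RefSeq (GRCm38.p6), which succeeded for 26056 probes (46.8%). Log2 processed signals minus the 75th percentile of the array were compared with limma 3.58.1 (R 4.3.3, lmFit and eBayes), and p was adjusted by the Benjamini-Hochberg method over the 25065 genes or features, with 0.05 as the threshold. The number of arrays limits the precision. The brightest probe stood for a gene. Ratios and correlations used exact permutation tests (SciPy 1.17.1). The fit was tested on simulated data. Values on every array are given for Col1a1, Col1a2, Col3a1, Col4a1, Col4a2, Col6a1, Col6a2, Col15a1 and Col18a1, for the chain of each class with the smallest p and for any with an unadjusted p under 0.05, and from each pathway list up to 4 genes by p were named. Col4a5 and Col9a2, Mia3 and the listed genes named for their counts were added after their values were seen. Members, lists and tests were chosen with earlier results of these data known. Figures were drawn with matplotlib 3.10.9.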

Additional observations from a re-analysis of the deposited data

Results flagged for a closer look

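Dixon's criterion at 95%, for which chance flags about 1 group in 20, was applied to 108 groups of 4 arrays. Among these groups were the named collagen chains and named pathway genes in each genotype. In 2 groups, an array lay far from the other 3. Mmp2 was 2.32 on Rap1-/- replicate 3 against 1.93 to 1.96 on the other Rap1-/- arrays, and P3h3 was 1.45 on Rap1-/- replicate 4 against 1.08 to 1.11.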

How the results depend on the processing

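The 15 collagen chains named above gave 314 values over the alternatives, of which 307 kept their sign and 7 reversed, and the adjusted p ranged from 0.534 upward, so no chain passed under any alternative. All genes called numbered 1, but 2 with normexp, the deposited values or a trended robust variance, and 0 within slide 1 and within slide 2, and with the mean of probes the 1 call was lower instead of higher. The number of chains higher at an unadjusted p under 0.05 was 9 with the spike-in scaling, 2 with slide as a block and 1 to 6 when single arrays were left out, while that of all genes was 1377, 451 and 278 to 703 (418 as reported). Median differences with the spike-in scaling, which put the median of all genes at 0.19, were 0.43 for all chains, 0.51 for type IV, 0.63 for types VIII and X, 0.43 for type VI, 0.24 for FACIT, 0.43 for transmembrane, 0.25 for multiplexin and 0.34 for types VII and XXVIII. Within slides 1 and 2 they were -0.15 and 0.19 for FACIT and 0.24 and -0.18 for multiplexin, and 0.063 within slide 1 for type IV. For types VIII and X the median was 0.087 with no filter and 0.18 with the mean of probes, and for transmembrane chains it was -0.13 with normexp, 0.042 in the deposited values and 0.18 to 0.29 when single arrays were left out. Ratios reversed within slide 1 for Col6a1 to Col6a2 (-0.0091, and -0.011 to 0.14 when single arrays were left out) and Col15a1 to Col18a1 (0.20), and within slide 2 for Col5a1 to Col5a2 (-0.027). Col15a1 was 0.11 with the spike-in scaling, 0.12 with the mean of probes, 0.34 within slide 1 and -0.31 to 0.057 when single arrays were left out. Col28a1 was -0.083 with normexp. Within slide 1, Col3a1 was -0.017, Col4a2 -0.0074, Mmp2 -0.0039 and Timp2 -0.021, and with the spike-in scaling Ddr1 was 0.11 and Mia2 0.058. The causes were not tested. With the replicate number as a block (replicate block), 7 chains and 446 of all genes were higher at an unadjusted p under 0.05, 1 gene of all was called and no other call changed. Same-numbered arrays did not deviate together (correlations of -0.22, -0.13, -0.13 and -0.16), and no Rap1-/- array matched the WT array of its own number best. Each best match was the other WT array of the same slide. These values gave no sign of pairing by number. A correlation over whole arrays cannot show whether mice shared a litter or handling. Signal over background limits Col17a1 and Col28a1, which were not well above it on every array.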
